A study of Homo sapiens with 6 samples.

Results

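Interferon response and antigen presentation genes were followed in HMC3, an established human microglial cell line, after treatment with CM that contained C1s or with CM that did not. The members are the 7 genes B2M, PSMB8, HLA-DMA, HLA-DPB1, IFIH1, ISG15 and GBP1, found by symbol among the 5117 genes of the deposited count table, and all 7 had a row. They were chosen because earlier results on the same comparison had named them, so their differences between C1s-CM and control CM are given as a description, with no test. The C1s-CM group holds 3 libraries of wild-type HMC3 cells and the control group 3 libraries of wild-type HMC3 cells titled FLAG, all grown in MEM with fetal bovine serum, penicillin and streptomycin. C1s cleaves C4 and C2 in the classical pathway of complement, and the title of the series names mesenchymal glioblastoma, immunosuppression and the metabolism of microglia. The labels do not spell out CM, and no source used here gives the cells that made it, its dose or the time of treatment. RNA came from whole cultures of 1 cell line, so fewer cells expressing a gene and less RNA per cell cannot be told apart.

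Interferons bind receptors at the cell surface, and the Janus kinases JAK1, JAK2 and TYK2 then activate STAT proteins. Type I interferon acts mainly through the interferon-stimulated response element (ISRE), and interferon gamma through the gamma-activated site (GAS). Among the targets are antiviral effectors such as ISG15, sensors of viral RNA such as IFIH1, the guanylate-binding proteins, and the machinery that cuts peptides, loads them on MHC molecules and shows them to T cells. Resting microglia show little MHC class II, and interferon gamma is a strong inducer of it in these cells.

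The sequences just before the transcription start are shown because they hold the elements that group these genes. The capitals mark every match to the ISRE core (GAAA, any 2 bases, GAAA) and to the CCAAT box, whose inverted form is the Y box of MHC promoters, on both strands. Each line gives the 180 bases before the RefSeq start, 5′ to 3′ on the gene's strand, from RefSeq on GRCh38.p14. They lie at chr1:1013317-1013496 (plus strand) for ISG15, chr15:44711337-44711516 (plus) for B2M, chr2:162318685-162318864 (minus) for IFIH1, chr1:89065209-89065388 (minus) for GBP1, chr6:32953098-32953277 (minus) for HLA-DMA and chr6:33075810-33075989 (plus) for HLA-DPB1.
ISG15: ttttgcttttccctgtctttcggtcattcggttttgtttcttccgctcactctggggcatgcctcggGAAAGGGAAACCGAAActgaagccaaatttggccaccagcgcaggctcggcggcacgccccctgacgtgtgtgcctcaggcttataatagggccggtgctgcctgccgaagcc
B2M: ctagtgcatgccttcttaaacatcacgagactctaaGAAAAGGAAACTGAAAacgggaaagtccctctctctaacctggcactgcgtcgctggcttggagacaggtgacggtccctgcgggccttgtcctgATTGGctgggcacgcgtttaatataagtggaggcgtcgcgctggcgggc
IFIH1: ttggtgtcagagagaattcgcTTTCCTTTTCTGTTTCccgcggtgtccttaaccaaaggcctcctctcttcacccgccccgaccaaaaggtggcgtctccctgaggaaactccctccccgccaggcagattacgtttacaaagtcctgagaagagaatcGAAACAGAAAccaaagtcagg
GBP1: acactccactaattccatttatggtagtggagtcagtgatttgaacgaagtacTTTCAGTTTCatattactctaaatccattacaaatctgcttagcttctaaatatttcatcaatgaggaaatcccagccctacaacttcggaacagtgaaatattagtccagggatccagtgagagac
HLA-DMA: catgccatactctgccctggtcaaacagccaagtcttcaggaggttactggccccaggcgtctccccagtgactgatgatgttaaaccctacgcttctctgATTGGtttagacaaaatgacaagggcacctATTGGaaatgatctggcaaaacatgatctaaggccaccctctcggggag
HLA-DPB1: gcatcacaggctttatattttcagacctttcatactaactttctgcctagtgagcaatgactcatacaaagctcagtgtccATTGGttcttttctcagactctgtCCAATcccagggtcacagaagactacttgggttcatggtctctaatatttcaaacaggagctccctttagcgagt

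In a window of 250 bases before the start, the ISRE core was found in ISG15, B2M, IFIH1 and GBP1 and in none of the starts of PSMB8, HLA-DMA and HLA-DPB1. ISG15 and B2M each had 2 overlapping matches, beginning 113 and 107 bases before the start in ISG15 and 144 and 138 bases before it in B2M. GBP1 had 1 match, 127 bases before the start. IFIH1 had 3, of which a pair overlap at 159 and 153 bases and the other lies 21 bases before the start. The CCAAT box was found in HLA-DMA at 79 and 49 bases, in HLA-DPB1 at 99 and 75 bases and in B2M at 49 bases before the start. The GAS motif (TTC, any 3 bases, GAA), which is its own reverse complement, was found in 1 of the starts that RefSeq lists for PSMB8, 65 bases before it, and in no other member. Of all 35116 promoter windows of this length, 3.02% held the ISRE core, 6.57% the GAS motif and 32.0% the CCAAT box. A match describes these letters and does not show that a factor binds there.

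The genes are spread over several chromosomes. On GRCh38 with GENCODE release 29, B2M spans chr15:44711487-44718877 on the plus strand and IFIH1 chr2:162267079-162318703 on the minus strand. ISG15 spans chr1:1001138-1014540 on the plus strand and GBP1 chr1:89052319-89065360 on the minus strand. The other 3 lie in the MHC on chromosome 6, PSMB8 at chr6:32840717-32844703 and HLA-DMA at chr6:32948613-32969094 on the minus strand and HLA-DPB1 at chr6:33075926-33087201 on the plus strand. All 7 are protein-coding.

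The table behind these values is limited to genes past the threshold of the authors' own test, so a gene that has no row was not analysed here. Its counts summed to 12730766 to 14961744 per library, a part of each library and not its depth. The labels name no separate cultures behind the 3 libraries of a group, so spreads and p-values may reflect technical variation. Of the 5116 genes tested with edgeR (quasi-likelihood, Benjamini-Hochberg adjustment), 99.4% passed an adjusted p of 0.05, 50.9% higher and 48.5% lower in C1s-CM. The groups did not overlap for 97.2%, 48.9% higher and 48.3% lower. The microglial identity of the cells could not be checked with this table. Of 10 fibroblast, pericyte and endothelial markers 3 had a row, among them COL1A1 with 49853 to 54676 counts over the 6 libraries. Of 8 dendritic and B cell markers 1 had a row, CD209, with 266 to 279 counts in C1s-CM and 0 in every control library. No T cell, NK cell, neuron or oligodendrocyte marker had a row.

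ISG15, B2M, IFIH1 and GBP1, whose windows all hold an ISRE core, did not move together: ISG15 was higher in C1s-CM and the other 3 were lower. PSMB8, HLA-DMA and HLA-DPB1 were higher. The groups did not overlap for any of the 7 (4 higher, 3 lower), as for 97.2% of the genes tested (48.9% higher, 48.3% lower), and nothing is read from that count. The sizes were small, from 0.654-fold in IFIH1 to 1.26-fold in ISG15. Levels are in CPM, the gene's count as a share of the library's total in the table after TMM scaling, which corrects totals for differences in composition, and are given as mean ± SD with n = 3 per group. Log2 fold changes are C1s-CM over control CM with the SE of the edgeR fit.

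**Figure D1:**
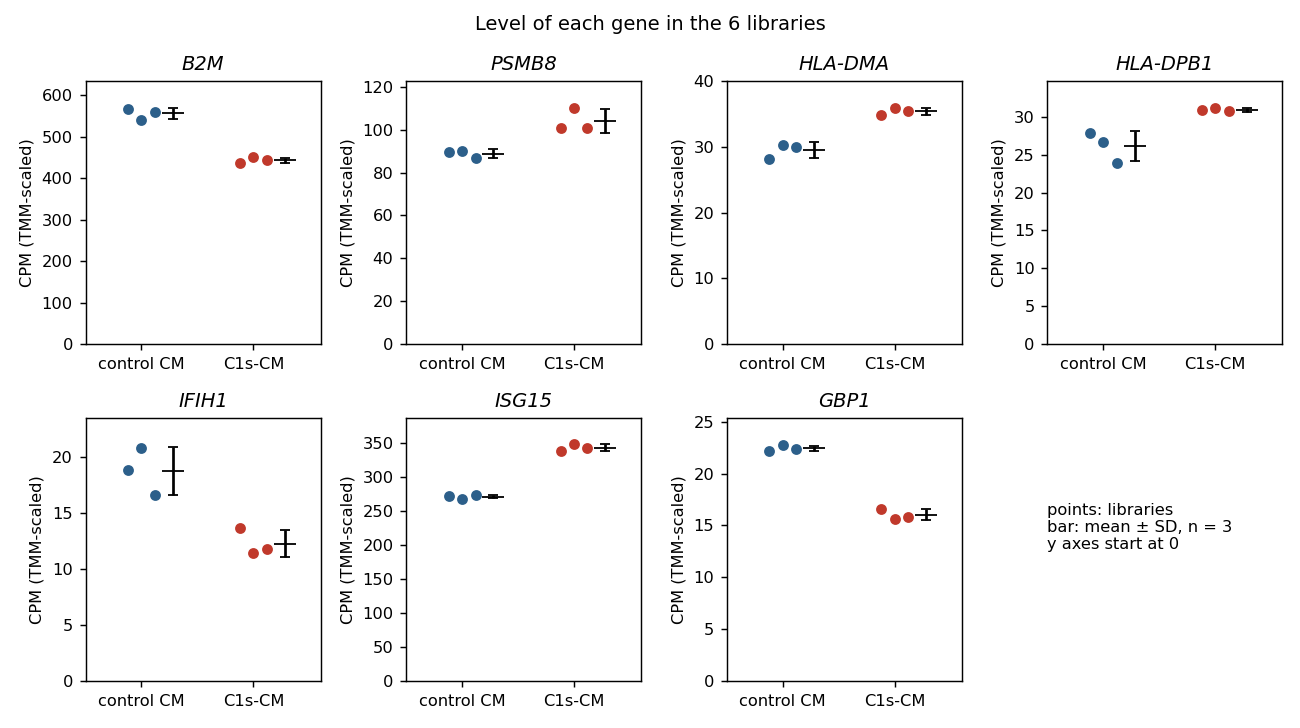
The level of each of the 7 genes in TMM-scaled CPM (vertical axis, from 0) is plotted for the 3 control CM and 3 C1s-CM libraries, with points for libraries and bars for the mean ± SD. ISG15, PSMB8, HLA-DMA and HLA-DPB1 lie higher in C1s-CM and B2M, IFIH1 and GBP1 lower, and no pair of groups overlaps.

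B2M encodes beta-2 microglobulin, the light chain that every MHC class I molecule needs to fold and reach the surface. It had 5953, 6419 and 6028 counts in C1s-CM and 7485, 7647 and 8180 in control CM. Every C1s-CM library was below every control library. The level was 442.9 ± 7.04 CPM in C1s-CM and 556.3 ± 13.5 CPM in control CM, and the log2 fold change was -0.33 ± 0.028.

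PSMB8 encodes the immunoproteasome subunit beta 5i, which interferon gamma induces to replace PSMB5 in the proteasome and which favours the cutting of peptides for MHC class I. It had 1379, 1574 and 1372 counts in C1s-CM and 1184, 1274 and 1264 in control CM. The 3 C1s-CM libraries were higher, with C1s-CM replicate 2 above the others. The level was 104.03 ± 5.47 CPM against 88.8 ± 1.96 CPM, a log2 fold change of 0.23 ± 0.044.

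HLA-DMA encodes the alpha chain of HLA-DM, which removes the CLIP peptide from MHC class II molecules in endosomes and lets antigenic peptides bind. It had 476, 513 and 483 counts in C1s-CM and 371, 429 and 438 in control CM. All C1s-CM libraries were higher, and the C1s-CM libraries lay close together at 35.4 ± 0.555 CPM against 29.5 ± 1.20 CPM. This is a log2 fold change of 0.26 ± 0.067.

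HLA-DPB1 encodes the beta chain of HLA-DP, a class II molecule that presents peptides to CD4+ T cells. It had 422, 445 and 418 counts in C1s-CM and 367, 377 and 349 in control CM. The C1s-CM libraries were again the higher ones, and the control libraries were the more spread, at 30.9 ± 0.248 CPM against 26.1 ± 2.01 CPM. Its log2 fold change was 0.25 ± 0.074. HLA genes differ between people, so reads of this line that differ from the reference, or that resemble related HLA genes, make these counts uncertain.

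IFIH1 encodes MDA5, a cytosolic sensor that binds long double-stranded RNA and signals through MAVS to switch on interferon genes. It had 186, 163 and 160 counts in C1s-CM and 249, 294 and 242 in control CM. All C1s-CM libraries were lower. The level was 12.3 ± 1.18 CPM against 18.8 ± 2.12 CPM, and the log2 fold change, -0.61 ± 0.11, was the largest of the 7 in size and larger than that of 88.4% of the genes tested.

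ISG15 encodes a ubiquitin-like protein that is joined to other proteins after interferon exposure and is also secreted. It had 4616, 4962 and 4670 counts in C1s-CM and 3588, 3786 and 3994 in control CM. All C1s-CM libraries were higher, at 343.0 ± 4.92 CPM against 271.2 ± 2.89 CPM. The spread was 1.43% of the mean in C1s-CM and 1.07% in control CM, below the 1.45% and 1.62% that counting alone gives. The log2 fold change of ISG15 was 0.34 ± 0.028.

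GBP1 encodes a large GTPase, induced by interferon gamma, that coats vacuoles and bacteria inside cells. It had 227, 223 and 215 counts in C1s-CM and 293, 321 and 327 in control CM. All C1s-CM libraries were lower, at 16.02 ± 0.531 CPM against 22.4 ± 0.258 CPM. On the log2 scale the fold change was -0.49 ± 0.084. GBP1 resembles other guanylate-binding protein genes, which adds uncertainty to its counts.

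The authors' deposited table gave the same directions, with log2 fold changes 0.0351 to 0.0363 above these for every member, for example 0.37 for ISG15 and -0.58 for IFIH1. For the rarer members the spread between libraries can be set beside counting error. For IFIH1 it was 9.65% of the mean in C1s-CM and 11.3% in control CM, where counting alone gives 7.68% and 6.18%. For HLA-DPB1 it was 0.802% and 7.70%, where counting gives 4.83% and 5.24%. For GBP1 it was 3.32% and 1.15%, where counting gives 6.72% and 5.65%. For HLA-DMA it was 1.57% and 4.08%, where counting gives 4.51% and 4.92%. A spread over 3 libraries that lies below counting error is not read as precision.

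Count ratios within a library do not depend on library scaling. The ratio of ISG15 to B2M was 0.775, 0.773 and 0.775 in C1s-CM and 0.479, 0.495 and 0.488 in control CM. It was therefore 1.59-fold higher in C1s-CM, and its SD was 0.0079 for control CM and 0.0012 for C1s-CM. The ratio of ISG15 to GBP1, which both have an ISRE core, was 20.3, 22.3 and 21.7 in C1s-CM and 12.2, 11.8 and 12.2 in control CM. The ratio of HLA-DMA to B2M was 0.0800, 0.0799 and 0.0801 in C1s-CM and 0.0496, 0.0561 and 0.0535 in control CM. In C1s-CM counting alone gives a spread of 1.45% of the mean for ISG15, 1.28% for B2M and 4.51% for HLA-DMA. The closeness of the C1s-CM ratios of ISG15 and HLA-DMA to B2M is therefore not read as precision. Each ratio sets a gene already known to be higher over one known to be lower, so its direction was fixed by that choice. Between groups the folds of these 3 ratios were 1.59, 1.77 and 1.51. With offsets for GC content and length, described below, they were 0.961, 1.09 and 1.03 in the same order. The ratios of ISG15 to IFIH1, HLA-DPB1 to B2M and PSMB8 to B2M were also taken. Their folds were 1.93, 1.49 and 1.47, and with offsets 1.19, 1.14 and 0.979.

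Levels of different genes are compared per kilobase of the representative transcript. In control CM the order was ISG15 (381.4 ± 4.07 CPM per kilobase), B2M (326.3 ± 7.93), PSMB8 (79.04 ± 1.74), HLA-DMA (26.3 ± 1.07), HLA-DPB1 (16.8 ± 1.29), GBP1 (7.39 ± 0.0850) and IFIH1 (5.22 ± 0.589). No neighbours in this order overlapped. The order in C1s-CM was the same, also without overlap, from 482.4 ± 6.92 for ISG15 and 259.8 ± 4.13 for B2M to 3.41 ± 0.329 CPM per kilobase for IFIH1. With the longest transcript as the length, HLA-DMA and HLA-DPB1 overlapped in control CM, at 16.2 to 17.5 and 15.3 to 17.8 CPM per kilobase. In control CM, ISG15 lay at percentile 95.7 and IFIH1 at percentile 19.2 of the table's levels per kilobase.

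The direction of the 7 genes ran with the GC content of their transcripts, as it does across the table. The higher genes had 64.7% (ISG15), 54.9% (PSMB8), 53.2% (HLA-DMA) and 48.8% GC (HLA-DPB1), and the lower genes 43.3% (IFIH1), 42.8% (GBP1) and 39.4% (B2M). Across genes, no independent replicates of each other, GC content and log2 fold change had a Spearman's rho of 0.85. The genes were put in 10 bins of equal size by GC content. In the bin that holds ISG15, 100% were higher in C1s-CM with a median log2 fold change of 0.30, against 0.34 for ISG15. In the bin of PSMB8 and HLA-DMA, 89.2% were higher with a median of 0.17. In the bin of IFIH1 and GBP1, 3.52% were higher and the median was -0.38, so IFIH1 lay 0.23 below it and GBP1 0.11 below it. B2M lay 0.19 above the median of its bin, -0.52, where 0.391% were higher. HLA-DPB1 was the member farthest from its bin's median, 0.50 above a median of -0.26, and 20.9% of that bin were higher. That bin runs from 43.7% to 49.3% GC, and HLA-DPB1 lies near its upper end. In the next bin up, that of PSMB8 and HLA-DMA, 89.2% were higher with a median of 0.17, so this distance depends on the edge of the bin.

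**Figure D2:**
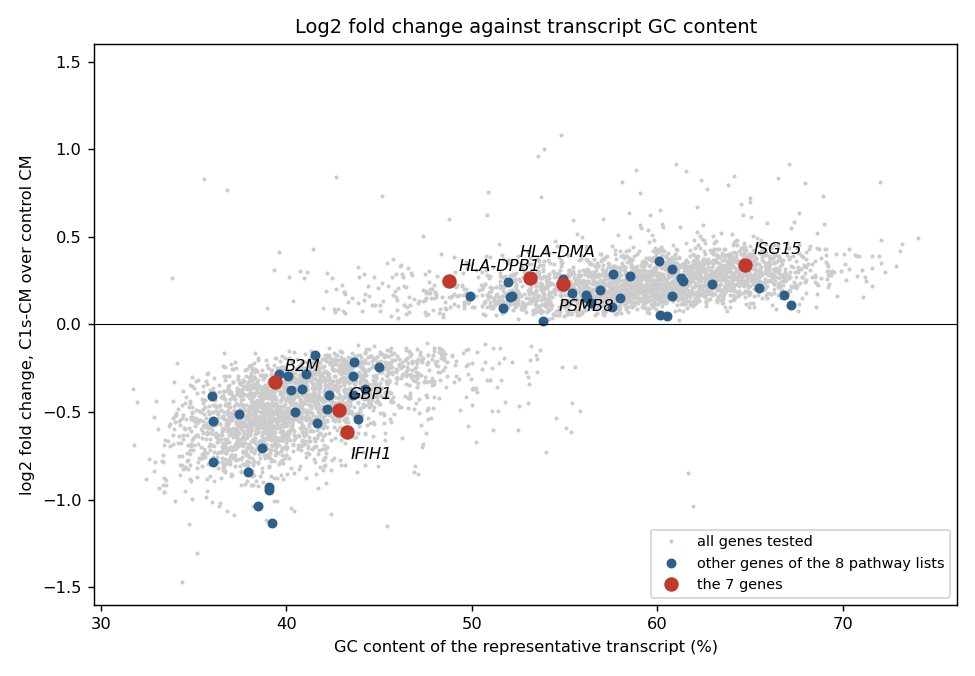
Each point is a gene, with the GC content of its representative transcript (%) on the horizontal axis and its log2 fold change on the vertical axis, which leaves out 6 genes beyond 1.6 in size. The 7 genes (red) and the other genes of the 8 pathway lists (blue) lie within the cloud of all genes, below 0 at low and above 0 at high GC content, and HLA-DPB1 (48.8% GC, 0.25) lies above 0 with 20.9% of the genes in its GC bin.

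Offsets that remove each library's trend with GC content and length left values nearer 0 for all 7 genes, least so for HLA-DPB1. ISG15 turned to -0.019 ± 0.027 and B2M to 0.038 ± 0.026, and PSMB8 came to 0.0075 ± 0.041. HLA-DMA was 0.082 ± 0.065, GBP1 -0.15 ± 0.082 and IFIH1 -0.27 ± 0.10. HLA-DPB1 stayed at 0.23 ± 0.071, but came to 0.12 when the longest transcript of each gene set GC content and length. With the longest transcript ISG15 was 0.0040 and B2M -0.036, each on the side of 0 that it had without offsets. How much of the differences comes from GC content was not tested, and such offsets also remove a biological difference that follows it.

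**Figure D3:**
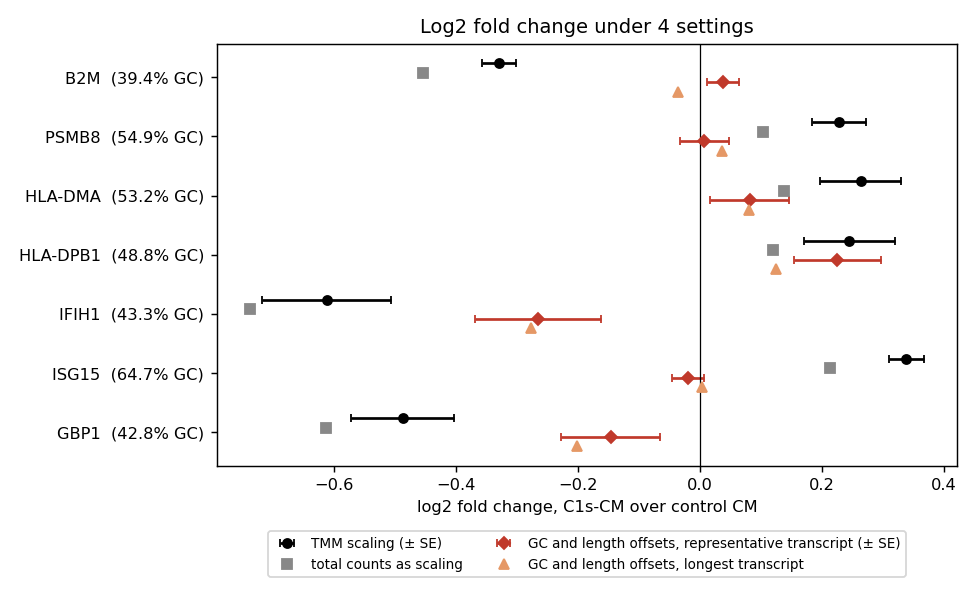
The log2 fold change of each of the 7 genes (horizontal axis) is plotted under TMM scaling (black, ± SE), total counts as scaling (grey), and offsets for GC content and length from the representative transcript (red, ± SE) or the longest one (orange). Total counts moved every gene to the left without turning any, and offsets brought ISG15, B2M and PSMB8 to within 0.04 of 0, with B2M and ISG15 changing sign for the representative transcript.

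Total counts as the only scaling shifted the median log2 fold change of all genes from 0.080 to -0.045, and gave 26.1% of genes higher and 49.2% lower in place of 50.9% and 48.5%. The 7 genes kept their directions. The log2 fold change was then 0.21 for ISG15, 0.10 for PSMB8, 0.14 for HLA-DMA and 0.12 for HLA-DPB1, and -0.45 for B2M, -0.61 for GBP1 and -0.74 for IFIH1. Counts of pathway genes below are therefore given with TMM scaling and, where they move by over 1.5 times, with total counts and offsets.

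The other genes of these pathways were taken from 8 lists with 154 further genes, of which 53 had a row. Of these, 24 rose and 26 fell, where 50.9% and 48.5% of all genes tested did so, and their median log2 fold change was 0.017 against 0.080. With total counts 9 rose and 28 fell, and with offsets 6 rose and 11 fell. With total counts 26.1% of all genes tested rose and 49.2% fell, and with offsets 14.5% and 11.6%. The lists were not tested as sets. Adjusted p-values below are from edgeR's quasi-likelihood test, in a table already selected by the authors' test on the same libraries.

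Among interferon-induced effectors 45 further genes were listed and 19 had a row, of which 6 rose and 12 fell (median log2 fold change -0.28). SAMD9L, an antiviral factor that restricts poxviruses, fell by 1.04 ± 0.25 on the log2 scale (adjusted p = 0.000412) and its relative SAMD9 by 0.78 ± 0.12. IFI44 fell by 0.94 ± 0.19 and EIF2AK2, the kinase PKR that stops translation on sensing double-stranded RNA, by 0.70 ± 0.050. LGALS3BP missed the threshold, at 0.046 ± 0.025. With offsets 0 rose and 4 fell, IFI44 (-0.56), EIF2AK2 (-0.13), HELZ2 (-0.18) and LGALS3BP (-0.20). SAMD9L (-0.49) and SAMD9 (-0.17) then missed the threshold. With total counts 2 rose and 13 fell, LGALS3BP (-0.080) now among those that fell. HELZ2 then turned to -0.015, short of the threshold.

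ISG15 conjugation divided. USP16, a deubiquitinase that can also remove ISG15, fell by 0.84 ± 0.10, and ARIH1, a ubiquitin ligase, fell by 0.29 ± 0.067. USP21 rose by 0.29 ± 0.064. UBE2L6, the conjugating enzyme for ISG15, rose by 0.12 ± 0.039 with overlapping groups and turned to -0.0027 with total counts and to -0.11 with offsets. With offsets ARIH1 turned to 0.20, USP16 was at -0.34, and USP21 was at 0.080 and missed the threshold. Without C1s-CM replicate 2 the genes of this list that rose went from 2 to 1. The activating enzyme UBA7, the ligase HERC5 and the protease USP18 had no row.

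Of 21 further genes of nucleic acid sensing 7 had a row, and 6 rose and 1 fell (median 0.17). DDX60, a helicase that acts with RNA sensors, fell by 0.93 ± 0.18, the same direction as IFIH1. IRF3, the factor that the sensors activate, rose by 0.25 ± 0.039, the Toll-like receptor adaptor TICAM1 by 0.23 ± 0.074 and the receptor chaperone UNC93B1 by 0.21 ± 0.058. With offsets IRF3, TICAM1 and UNC93B1 turned to -0.029, -0.033 and -0.085 and missed the threshold, and DDX60 (-0.39) missed it too. Among the 6 guanylate-binding protein genes besides GBP1, GBP3 had a row and fell by 0.56 ± 0.15 (-0.17 with offsets, below the threshold). With offsets 2 sensing genes rose, MAVS (0.19) and ZNFX1 (0.13), and 1 fell, IRF7 (-0.14). With total counts 1 sensing gene rose, IRF3 (0.12), and 1 fell, DDX60 (-1.05). ZNFX1 then turned to -0.035, short of the threshold.

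Interferon signalling had 6 of 26 genes with a row, of which 1 rose and 5 fell (median -0.39). The kinase JAK2, which interferon gamma signalling needs, fell by 1.13 ± 0.16 (adjusted p = 1.11e-06) and still passed with offsets (-0.60). The phosphatase PTPN11 fell by 0.48 ± 0.040, the type I receptor chain IFNAR1 by 0.40 ± 0.068 and the STAT inhibitor PIAS1 by 0.37 ± 0.066. With offsets PTPN11 was -0.041, IFNAR1 0.034 and PIAS1 0.12, none past the threshold. IFNB1, IFNG and IFNL1, which encode interferons, had no row.

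Of 16 further genes of MHC class I presentation 5 had a row, and 1 rose and 2 fell. Without C1s-CM replicate 2, C1s-CM replicate 3 or control CM replicate 2, each left out alone, 2 rose. ERAP2, which trims peptides in the endoplasmic reticulum, fell by 0.50 ± 0.060 and the chaperone CANX by 0.18 ± 0.027. HLA-C, a class I heavy chain, was at 0.054 ± 0.032, short of the threshold. B2M, its partner, was at -0.33. With offsets 1 rose, CANX, which turned to 0.25. HLA-C and CALR turned to -0.21 and -0.12, and these 2 fell. ERAP2 was at -0.0035, short of the threshold. With total counts 0 rose and 3 fell, ERAP2 (-0.63), CANX (-0.30) and CALR (-0.11). HLA-C then turned to -0.071, short of the threshold.

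All 7 further genes with a row, of 9 listed, rose (median 0.17), as PSMB8 was higher, although PSME2 turned to -0.025 with total counts. They lie in GC bins where 89.2% to 100% of genes were higher. PSMB10, another immunoproteasome subunit, rose by 0.36 ± 0.10, and PSMB9, the remaining one, by 0.17 ± 0.047. PSMB6 and PSMB5, the constitutive subunits that PSMB9 and PSMB8 replace, rose by 0.26 ± 0.031 and 0.24 ± 0.032. With total counts 3 rose and 0 fell. With offsets 2 rose and 1 fell, PSME2 (-0.14), while PSMB9 turned to -0.025, short of the threshold. The 2 that rose with offsets were PSMB5 (0.10) and PSMB6 (0.074), the constitutive subunits.

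Of 23 further genes of MHC class II presentation 4 had a row, and 1 rose and 3 fell. RFXANK, a subunit of the RFX complex that binds class II promoters, rose by 0.31 ± 0.054. CREB1, which binds the same promoters, fell by 0.55 ± 0.062, and NFYB and NFYA, subunits of the factor that binds the CCAAT box shown above, by 0.41 ± 0.11 and 0.24 ± 0.059. With offsets the 4 genes were 0.032, 0.076, 0.16 and 0.013 in the same order, none past the threshold. The class II transactivator CIITA, the invariant chain CD74 and the HLA-DR genes had no row. CD209, the dendritic cell marker at 0 in every control library, was also higher in C1s-CM, as were 50.9% of all genes tested, at any size of change. Its log2 fold change was 11.1, a size that is poorly defined with 0 control counts, against 0.26 for HLA-DMA and 0.25 for HLA-DPB1. Whether CD209 has a part in the differences of HLA-DMA and HLA-DPB1 was not tested.

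**Figure D4:**
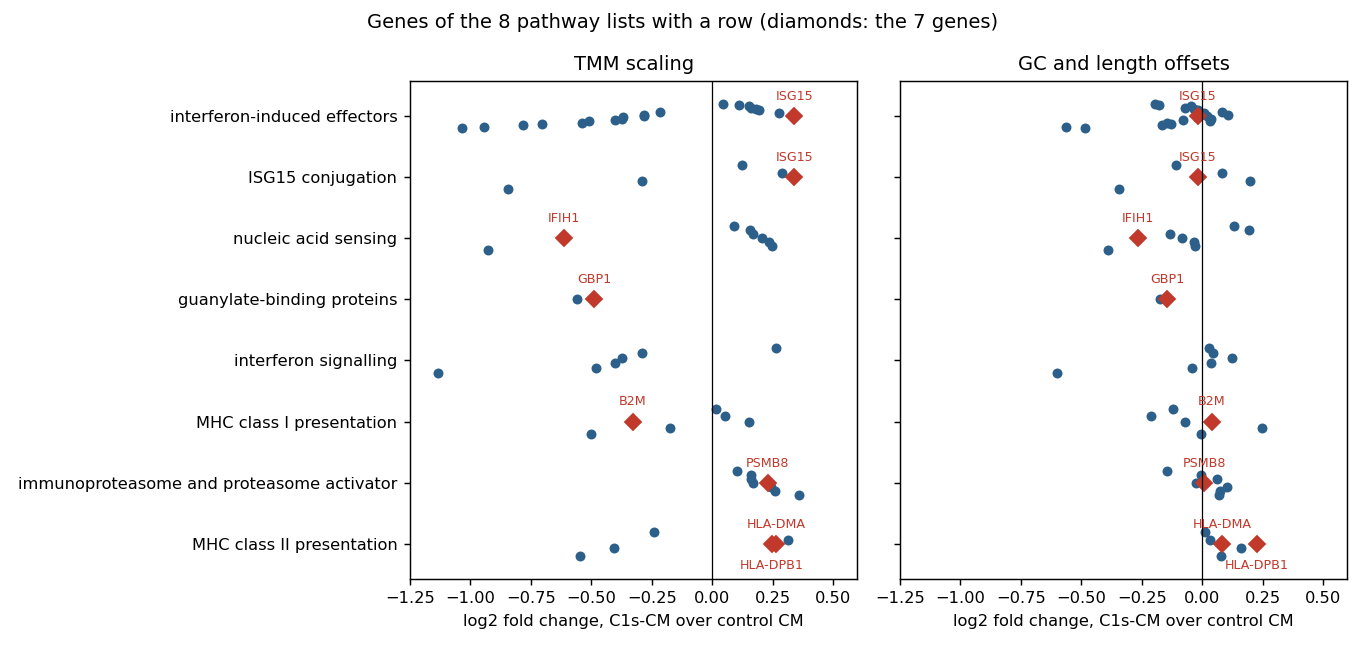
The log2 fold change (horizontal axis) of each gene of the 8 pathway lists with a row is plotted with TMM scaling (left) and with offsets for GC content and length (right), with diamonds for the 7 genes and circles for the others. The proteasome list lies wholly above 0 on the left and around 0 on the right, where JAK2 (-0.60), IFI44 (-0.56) and SAMD9L (-0.49) stay farthest to the left. These genes have few counts per library, 48 to 162 for JAK2, 33 to 91 for IFI44 and 15 to 72 for SAMD9L.

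By gene span, PSMB8 overlaps PSMB9 by 568 bases and HLA-DMA overlaps BRD2 by 435 bases, each on the opposite strand. Genes without a row also overlap members. These are PSMB8-AS1 for PSMB8, AL645941.2 (same strand) for HLA-DMA and HLA-DPA1 and RPL32P1 (the latter same strand) for HLA-DPB1. For ISG15 they are AL645608.3 and AL645608.1. The use of strand in counting is not given in the sources used here, so reads there cannot be told apart. BRD2 had 3906, 4059 and 3939 counts in C1s-CM and 3717, 3834 and 4053 in control CM, a log2 fold change of 0.050 ± 0.029.

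Genes with the ISRE core before their start were also compared with the rest, after the data had been seen. Of 4189 tested genes matched to a RefSeq promoter by Ensembl ID, or else by symbol, 135 held the core, or 3.22%. Of these 55 rose and 78 fell, with a median log2 fold change of -0.28, whereas 2061 rose and 1971 fell among genes without it, with a median of 0.079. The median transcript GC content was 43.6% with the core and 49.6% without it. With offsets 23 of the 135 genes with the core rose and 14 fell, and 578 of the 4054 without it rose and 461 fell, with medians of -0.019 and -0.0035. Genes with the GAS motif were also lower on balance without offsets, with 139 rising, 165 falling and a median of -0.23 over 307 genes whose median GC content was 45.7%. Among the 3882 genes without it 1977 rose and 1884 fell, with a median of 0.082 and a median GC content of 49.6%. With offsets 30 genes with the GAS motif rose and 35 fell, and 571 without it rose and 440 fell. The medians were then -0.013 with it and -0.0034 without it.

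The genes whose levels over the 6 libraries were most like those of each member came from other functions. They are given by Pearson's r of log2 CPM, as a description over libraries that share the group difference. The nearest to ISG15 were C19orf48 and AKT1S1 (r = 0.999 and 0.998 in that order), and those of B2M were YIPF6 and the splicing factor SF3B1 (0.999 for each). GBP1 was nearest to CEP55 and ARHGAP29 (0.999 for each), IFIH1 to SYPL1 (0.999) and PRKACB (0.997), and PSMB8 to PRMT7 and CENPT (0.996 for each). HLA-DMA was nearest to PAXX (0.999) and KDM4B (0.998), and HLA-DPB1 to the ribosomal protein gene RPL3 (0.999) and ELP5 (0.995). Between 14.6% (HLA-DPB1) and 40.2% (GBP1) of all genes had an r over 0.9 with a member, so many genes were nearly as like as those named. Among the members ISG15 and GBP1 ran most closely opposite, with r = -0.998.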

How the data were processed

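RNA of 6 HMC3 libraries was sequenced as poly(A)-selected, randomly primed, paired-end libraries, per the labels' protocols. Per the submitters' processing notes, FastQC 0.11.9, Trim Galore 0.6.7, HISAT2 2.2.1 and DESeq2 1.40.2 were used with GRCh38. No source used here gives the counter, the annotation or whether strand was used. The authors deposited raw counts per gene, with their own log2 fold change, p-value and adjusted p-value, per the file headers. Adjusted p-values in that table reach at most 0.05.

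Counts were fitted over the whole table with edgeR 4.0.16 in R 4.3.3 (filterByExpr, which removed 1 gene, TMM, two-sided quasi-likelihood test on group alone, Benjamini-Hochberg). The SE was taken as the size of the log2 fold change over the root of F. Offsets came from a loess fit (span 0.3) of log2 CPM per library on GC content and log2 length of GENCODE 29 transcripts, for 5113 of 5117 genes. The offsets and the TMM factors rest only on genes past the authors' threshold, so genes short of it do not enter them. The steps were tested on simulated data. DESeq2 1.42.0, other scalings and filters, a replicate block and leaving out each library were the alternatives.

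The members, lists, tests and alternatives were chosen with earlier results of these data known. Named are the 7 members, in each list the up to 4 other genes with the largest absolute log2 fold change, and per member the 2 genes with the highest Pearson r. Other genes were named after their values were seen. Motifs were matched as exact letters. The promoters printed for the members were matched by gene symbol, and those of all genes tested by Ensembl ID, or by symbol where that gave none. Some genes that the rule would name are not reported here.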

Additional observations from a re-analysis of the deposited data

How the results depend on the processing

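The 7 genes kept their directions with DESeq2, DESeq2's size factors, no filter, a filter of 50 counts in 3 libraries, total counts, the replicate block and without each library. Offsets for GC content and length of the representative transcript turned B2M and ISG15, and those of the longest transcript turned neither. With total counts, the log2 fold changes were 0.21 for ISG15, -0.45 for B2M, 0.10 for PSMB8, 0.14 for HLA-DMA, 0.12 for HLA-DPB1, -0.74 for IFIH1 and -0.61 for GBP1. The medians of the other genes of the lists were -0.41 for effectors, -0.21 for ISG15 conjugation, 0.045 for nucleic acid sensing, -0.69 for guanylate-binding proteins, -0.51 for interferon signalling, -0.11 for MHC class I, 0.044 for proteasome and -0.45 for MHC class II. Over all lists 9 rose and 28 fell with a median of -0.11, and of all genes tested 1336 rose and 2517 fell. With offsets from the representative transcript, the log2 fold changes were -0.019 for ISG15, 0.038 for B2M, 0.0075 for PSMB8, 0.082 for HLA-DMA, 0.23 for HLA-DPB1, -0.27 for IFIH1 and -0.15 for GBP1. The medians of the other genes of the lists were -0.048 for effectors, -0.014 for ISG15 conjugation, -0.033 for nucleic acid sensing, -0.17 for guanylate-binding proteins, 0.031 for interferon signalling, -0.074 for MHC class I, 0.062 for proteasome and 0.054 for MHC class II. Over all lists 6 rose and 11 fell with a median of -0.021, and of all genes tested 741 rose and 592 fell. With offsets from the longest transcript, the log2 fold changes were 0.0040 for ISG15, -0.036 for B2M, 0.036 for PSMB8, 0.080 for HLA-DMA, 0.12 for HLA-DPB1, -0.28 for IFIH1 and -0.20 for GBP1. The medians of the other genes of the lists were -0.058 for effectors, -0.0025 for ISG15 conjugation, -0.045 for nucleic acid sensing, -0.11 for guanylate-binding proteins, 0.0076 for interferon signalling, -0.11 for MHC class I, 0.056 for proteasome and 0.038 for MHC class II. Over all lists 7 rose and 11 fell with a median of -0.030, and of all genes tested 748 rose and 649 fell. The median over all lists was 0.0027 with DESeq2, 0.0026 with its size factors and 0.030 with the filter of 50 counts. Why these values moved was not tested. Without each library in turn the log2 fold changes ranged from 0.33 to 0.35 for ISG15, -0.34 to -0.31 for B2M, 0.18 to 0.25 for PSMB8, 0.23 to 0.29 for HLA-DMA, 0.19 to 0.29 for HLA-DPB1, -0.69 to -0.52 for IFIH1 and -0.51 to -0.47 for GBP1. The medians ranged from -0.39 to -0.26 for MHC class II and from 0.0064 to 0.032 over all lists. Same-numbered libraries did not deviate together (r = -0.13, -0.087 and -0.0031), so the numbers were not taken as pairs. With the replicate block IFIH1 was -0.61 and ISG15 0.34, and 2573 genes rose and 2481 fell. IFIH1 and GBP1, with the fewest counts, had the largest SEs.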
